A study of Bos taurus with 9 samples.

Results

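COX7B2, GPD2 and DDIT4L are 3 of the 47 genes that the deposited table of bovine blastocysts presents as differentially expressed. They were found by their symbols in that table, and each has an FPKM value (fragments per kilobase of gene, corrected for the number mapped in each library) and a read count in all 9 libraries. The study preserved blastocysts, embryos of the stage at which a fluid-filled cavity has formed, by vitrification, which cools them so fast that they turn into a glass and no ice forms. AKG-treated libraries came from embryos vitrified and warmed with α-ketoglutarate (AKG), a metabolite of the Krebs cycle in mitochondria. AKG-free libraries came from embryos vitrified and warmed without it, and control libraries are labelled only as controls. Each group had 3 libraries, and all 9 are labelled as female embryos. The sources used here give neither the concentration and timing of AKG nor the breed, the age of the embryos or how many of them made a library. Nothing in the labels ties the libraries of a group to separate embryo batches, so p-values and SDs measure the spread between libraries, which may be technical in part.

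The 3 genes sit at different points of energy and growth control. Cytochrome c oxidase is the last complex of the mitochondrial respiratory chain and passes electrons to oxygen, and COX7B2 encodes a relative of its small nuclear-encoded subunit COX7B. In humans COX7B2 is best known from the testis. GPD2 is the mitochondrial enzyme of the glycerol phosphate shuttle: it sits in the inner membrane, oxidizes glycerol 3-phosphate and hands the electrons to ubiquinone, which links glycolysis and glycerolipid metabolism to respiration. DDIT4L, also called REDD2, is a relative of the stress-induced protein DDIT4 and is known from human and mouse cells as an inhibitor of mTORC1, the kinase complex that couples nutrient and energy supply to protein synthesis and growth. A blastocyst relies on both glycolysis and respiration to pump fluid into its cavity.

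COX7B2 (ENSBTAG00000050016) is listed on chromosome 6 from 65334350 to 65334586, minus strand, a single annotated interval of 237 bases with 1 transcript. DDIT4L (ENSBTAG00000010610) lies on the same chromosome from 24526441 to 24531397, plus strand, also with 1 transcript, and these were the only listed genes of chromosome 6. GPD2 (ENSBTAG00000009770) spans 39653910 to 39803015 on chromosome 2, minus strand, with 3 transcripts. All 3 are annotated as protein coding, and the positions are those of the deposited table, for which the sources used here name no genome build. In the RefSeq annotation of assembly ARS-UCD2.0, used for names only, neither COX7B2 nor DDIT4L overlapped another gene. GPD2 overlapped 4 others there, among them the transcription factor gene NR4A2. Strand use in counting is not stated, so reads of such overlapping genes could not be told apart. COX7B lies on chromosome X and DDIT4 on chromosome 28 in that annotation. Neither is among the 47 listed genes, and whether reads of COX7B were divided with COX7B2 was not tested.

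Relative to a mean of 1, the depth of the libraries was between 0.793 and 1.17, and absolute depth is unknown. The counts of the 47 listed genes came to 37428 to 50780 per AKG-treated library, to 55940, 207900 and 362783 in AKG-free libraries 1 to 3, and to 32230 to 38486 per control library. AKG-free libraries 2 and 3 therefore stood apart from AKG-free library 1 over the list as a whole. All 3 genes passed a filter of a mean of at least 0.5 FPKM over the 9 libraries, as did 29 of the 47. Member counts ran from 217 to 5525. Counting error alone, as an exact 95% Poisson interval, was at most ± 13.5% of a value, and it covers counting only because amplified reads are not independent molecules. At mean depth 1 FPKM stood for 14.7 counts of COX7B2, 173 counts of DDIT4L and 231 counts of GPD2, since the short COX7B2 interval collects few reads per FPKM.

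The AKG-free mean was the highest of the 3 group means for COX7B2, GPD2 and DDIT4L. It was the highest or the lowest for all 47 listed genes, so this pattern is no finding about the 3 genes. The 3 genes were selected on these FPKM and count values, through the list, and the comparisons of AKG-free libraries with control and with AKG-treated libraries are therefore given as descriptions, without a test. Library number 1, 2 or 3 names a library within its group. The labels do not say whether equal numbers pair libraries across groups, and the main fit treated them as unpaired. In RNA of whole embryos, more cells expressing a gene and more RNA per cell cannot be told apart.

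COX7B2 had 43.4, 72.9 and 50.9 FPKM in AKG-treated libraries 1 to 3, against 58.8, 285 and 322 FPKM in AKG-free libraries 1 to 3 and 58.4, 45.4 and 49.4 FPKM in control libraries 1 to 3. Only AKG-free libraries 2 and 3 were far above the rest, and AKG-free library 1 stood at the level of control library 1. Group means were 55.8 ± 15.3 FPKM with AKG, 222 ± 143 FPKM without it and 51.1 ± 6.68 FPKM in controls (SD, n = 3 each). COX7B2 was the most abundant of the 3 genes per length in every group, at rank 4, 3 and 4 of 47 by mean FPKM in AKG-treated, AKG-free and control libraries.

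The AKG-free mean of COX7B2 was 4.35-fold the control mean, and the ratio ran from 3.37 to 5.95 when 1 library was left out. Every AKG-free library was above every control library, as for 15 of the 47 listed genes (31.9%) in that direction. That separation rested on AKG-free library 1, whose 956 reads gave 58.8 FPKM with a counting interval of 55.2 to 62.7. Control library 1, with 941 reads, had 58.4 FPKM with an interval of 54.7 to 62.3. The gap between these 2 libraries was thus not detectable at this depth, while AKG-free library 2 was 5.59-fold and library 3 6.32-fold the control mean. AKG-treated library 2, at 72.9 FPKM, was above AKG-free library 1, so those groups overlapped.

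**Figure D1:**
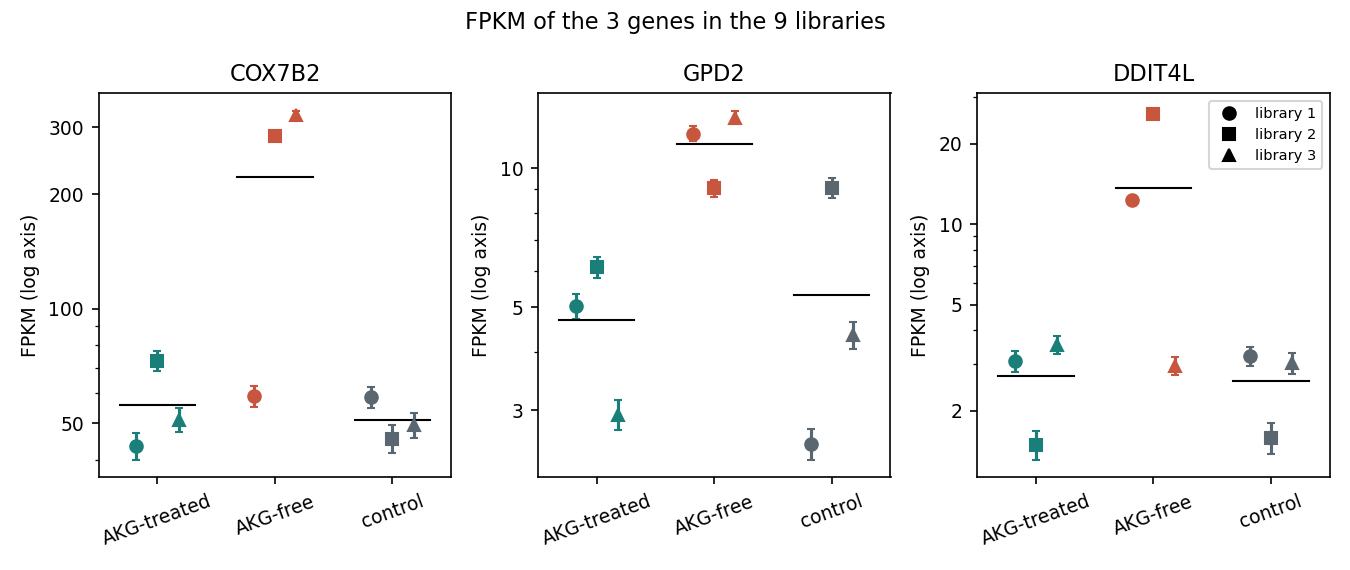
FPKM of COX7B2, GPD2 and DDIT4L (1 panel each, log axis) in AKG-treated, AKG-free and control libraries, with symbols for library 1, 2 and 3, error bars for the exact 95% Poisson counting interval and a line at each group mean. In each panel 1 AKG-free library lies at the level of a control library: library 1 for COX7B2 (58.8 FPKM), library 2 for GPD2 (9.05 FPKM) and library 3 for DDIT4L (2.95 FPKM).

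GPD2 had 5.03, 6.11 and 2.92 FPKM in AKG-treated libraries 1 to 3, against 11.9, 9.05 and 12.9 FPKM in AKG-free libraries 1 to 3 and 2.53, 9.07 and 4.35 FPKM in control libraries 1 to 3. The AKG-free values were the tightest of the 3 groups for this gene, with a coefficient of variation of 34.6% in AKG-treated, 17.6% in AKG-free and 63.5% in control libraries. Control library 2 was 3.58-fold control library 1 and reached the level of AKG-free library 2, so AKG-free and control libraries overlapped. The counting intervals of that pair covered each other, at 8.67 to 9.45 FPKM for AKG-free library 2 and 8.64 to 9.52 FPKM for control library 2.

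Group means of GPD2 were 4.69 ± 1.62 FPKM with AKG, 11.3 ± 1.98 FPKM without it and 5.32 ± 3.38 FPKM in controls (SD, n = 3 each). The AKG-free mean was 2.12-fold the control mean and 3.27-fold without control library 2. The AKG-treated mean was 0.416 of the AKG-free mean. Every AKG-treated library was below every AKG-free library, which held for 12 of the 47 listed genes (25.5%) and among the 3 genes for GPD2 alone.

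DDIT4L had 3.08, 1.49 and 3.53 FPKM in AKG-treated libraries 1 to 3, against 12.3, 25.8 and 2.95 FPKM in AKG-free libraries 1 to 3 and 3.20, 1.58 and 3.01 FPKM in control libraries 1 to 3. AKG-free library 2 was the highest and library 1 the next, while library 3 lay inside the range of both other groups. Group means were 2.70 ± 1.07 FPKM with AKG, 13.7 ± 11.5 FPKM without it and 2.60 ± 0.887 FPKM in controls (SD, n = 3 each). The AKG-free mean was 5.26-fold the control mean, 2.93-fold without AKG-free library 2 and 7.33-fold without AKG-free library 3. The AKG-free coefficient of variation, 84.0%, was the highest among the 3 groups of these 3 genes, and the highest AKG-free library was 8.75-fold the lowest. Both comparisons with the AKG-free group overlapped for DDIT4L.

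For each gene a different AKG-free library lay near the level of at least 1 control library, and no AKG-free library had all 3 genes above every control library by more than counting error. AKG-free library 1 held 4.73-fold the control mean of DDIT4L and 2.24-fold that of GPD2, but 1.15-fold that of COX7B2. Library 2 held 9.93-fold of DDIT4L and 5.59-fold of COX7B2, with 1.70-fold of GPD2. Library 3 held 6.32-fold of COX7B2 and 2.42-fold of GPD2, but 1.13-fold of DDIT4L. Ratios within a library do not depend on depth and showed the same disparity. COX7B2 over DDIT4L, as a ratio of FPKM, was 14.1, 49.0 and 14.4 in AKG-treated libraries 1 to 3, against 4.79, 11.1 and 109 in AKG-free libraries 1 to 3 and 18.2, 28.7 and 16.4 in control libraries 1 to 3.

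The other listed genes differed between the AKG-free libraries too. On the log2(FPKM + 1) scale, the median difference from the control mean over the other 26 genes that passed the filter was 0.35, 0.15 and 0.11 in AKG-treated libraries 1 to 3, and 0.42, 2.04 and 2.24 in AKG-free libraries 1 to 3. COX7B2 had differences of 0.21, 2.47 and 2.64 in AKG-free libraries 1 to 3, low in the library where that median was low. DDIT4L had 1.92, 2.93 and 0.17 there, and in AKG-free library 1 only 3 of the 26 other genes stood further above the control mean. GPD2 had 1.16, 0.81 and 1.27, the narrowest range of the 3 genes. The part of this shared difference in the values of COX7B2 was not tested.

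**Figure D2:**
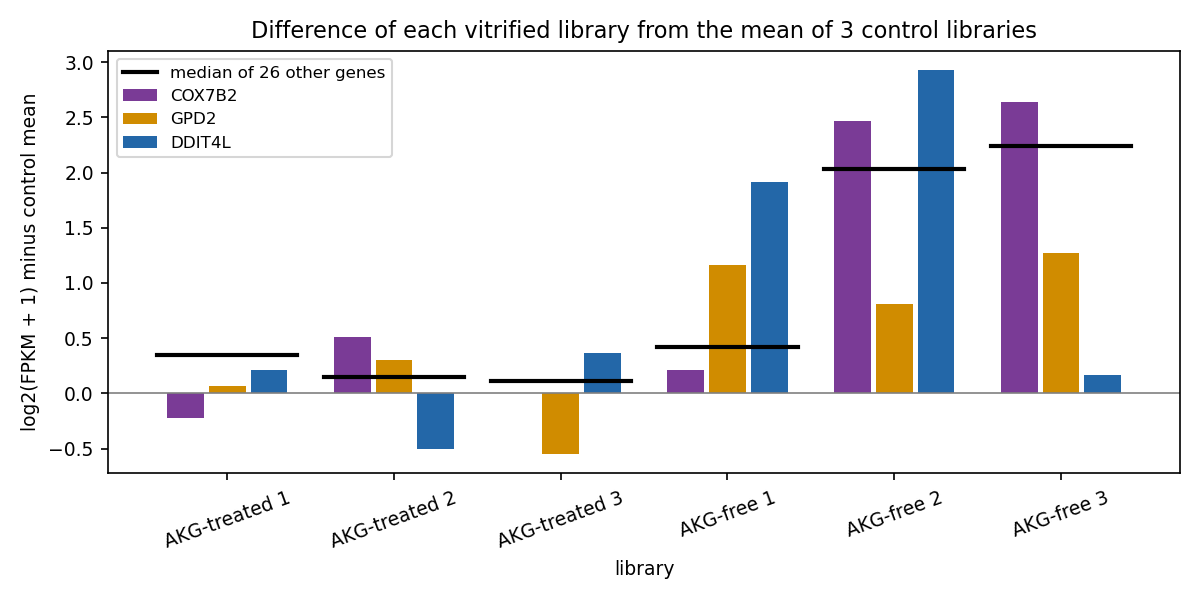
Difference of log2(FPKM + 1) from the mean of the 3 control libraries (y axis) for COX7B2, GPD2 and DDIT4L (bars) in each AKG-treated and AKG-free library, with a black line at the median of the 26 other genes that passed the filter. COX7B2 lies near that line in AKG-free libraries 1 to 3 (0.21, 2.47 and 2.64 against medians of 0.42, 2.04 and 2.24), while DDIT4L is above it in AKG-free library 1 (1.92) and far below it in library 3 (0.17).

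Scaling set the size, and in part the sign, of the AKG-free differences. With library sizes from relative depth, edgeR's fit over all 47 genes gave log2 differences of AKG-free minus control of 2.12 for COX7B2, 1.08 for GPD2 and 2.39 for DDIT4L. Trimmed-mean (TMM) scaling over the listed genes shifted the differences of the 29 genes that passed the filter by a median of -1.59, which left 0.33 for COX7B2 and 0.92 for DDIT4L and turned GPD2 to -0.43. Size factors of DESeq2, which draw only on listed genes with reads in all 9 libraries, turned COX7B2 to -0.01 as well. Both scalings take most genes as unchanged, while by group means 38 of the 47 listed genes (80.9%) had more FPKM without AKG than in controls. Set against the median of the 29 genes, the depth-scaled differences were -0.27 for COX7B2, -1.31 for GPD2 and 0 for DDIT4L, whose value was the median itself. On the log2(FPKM + 1) scale, 9, 16 and 17 of the 26 other genes stood further above the control mean than GPD2 in AKG-free libraries 1 to 3. The listed genes give no scale that would show whether it changed relative to genes outside the list.

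AKG-treated minus AKG-free, a comparison that uses the same AKG-free libraries, gave depth-scaled log2 differences of -1.99 for COX7B2, -1.26 for GPD2 and -2.34 for DDIT4L. The median of the 29 genes was -1.87. By group means all 3 genes were lower in AKG-treated than in AKG-free libraries, as were 38 of the 47 listed genes (80.9%). The signs held under both other scalings, with values of -0.63 and -0.42 for COX7B2, -0.25 and -0.36 for GPD2, and -1.25 and -1.31 for DDIT4L. Without AKG-free library 2 the DDIT4L difference was -1.50.

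AKG-treated and control libraries were compared to ask what remained different when embryos were vitrified with AKG. The difference itself leaves out the AKG-free libraries, but the main edgeR test took its spread from all 9 libraries. No other comparison was tested. The sources used here do not give the rule that made the list, but the list cannot be taken as independent of this comparison. For all 47 listed genes the AKG-treated and control means lay on the same side of the AKG-free mean. A list of such genes favours similar AKG-treated and control levels. Close means and a lack of genes past the threshold may therefore follow from the selection, and do not show what AKG left unchanged. The group means lay close together, at 55.8 with AKG against 51.1 FPKM in controls for COX7B2, 4.69 against 5.32 FPKM for GPD2 and 2.70 against 2.60 FPKM for DDIT4L. The groups overlapped for all 3 genes, while 6 of the 47 listed genes (12.8%) had separate libraries. All 3 AKG-treated values of GPD2 lay within the control range. COX7B2 and DDIT4L each had 1 AKG-treated library above, 1 below and 1 within the control range.

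The quasi-likelihood test of edgeR on the counts, with Benjamini-Hochberg adjustment over 47 genes, gave log2 differences of 0.13 for COX7B2, -0.18 for GPD2 and 0.05 for DDIT4L, each with an adjusted p of 1. None of the 3 genes passed, and 0 of the 47 listed genes (0%) did. At an unadjusted p under 0.05, edgeR found 1 gene, DESeq2's Wald test 3 and limma 1, and none was COX7B2, GPD2 or DDIT4L. The sign was not settled for any of the 3 genes: COX7B2 and DDIT4L turned negative with both scalings over the listed genes. GPD2 was -0.68 with TMM and -0.88 with size factors over those genes, and 0.45 without control library 2.

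These missed thresholds do not show equal levels. On the log2(FPKM + 1) scale limma gave 0.10 for COX7B2 (SE 0.636, 95% interval -1.30 to 1.50), -0.06 for GPD2 (SE 0.535, interval -1.24 to 1.12) and 0.03 for DDIT4L (SE 0.679, interval -1.47 to 1.52). The intervals use a spread shared with the AKG-free libraries, which varied most for COX7B2 and DDIT4L. Differences of 1 log2 unit in either direction lay inside all 3 intervals.

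**Figure D3:**
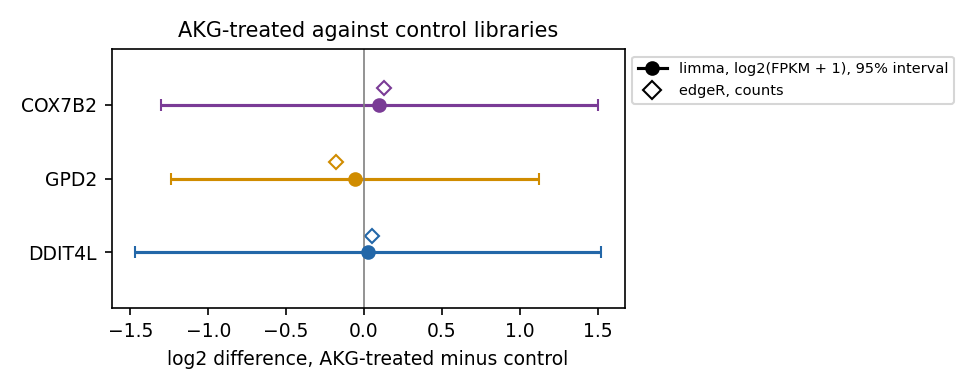
Log2 difference of AKG-treated minus control libraries (x axis) for COX7B2, GPD2 and DDIT4L. Filled circles with bars are limma values on log2(FPKM + 1) with their 95% intervals and open diamonds are edgeR values from counts, and all 3 intervals span 0, from -1.47 to 1.52 for DDIT4L.

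By FPKM, GPD2 and DDIT4L took opposite orders of the libraries within each of the 3 groups. Part of the DDIT4L order lay within counting error. Among controls the intervals of libraries 1 and 3 overlapped, at 2.95 to 3.47 and 2.75 to 3.29 FPKM. Those of AKG-treated libraries 1 and 3 did too, at 2.81 to 3.36 and 3.26 to 3.82 FPKM. Groups of 3 libraries allow few orders, and an inverse relation of these genes was not tested. Among AKG-treated libraries, GPD2 was highest (6.11 FPKM) and DDIT4L lowest (1.49 FPKM) in library 2, and among control libraries the same held in library 2, with 9.07 FPKM of GPD2 and 1.58 FPKM of DDIT4L. DDIT4L over GPD2, as a ratio of FPKM, was 0.612, 0.243 and 1.21 in AKG-treated libraries 1 to 3, against 1.03, 2.85 and 0.229 in AKG-free libraries 1 to 3 and 1.27, 0.174 and 0.692 in control libraries 1 to 3. In the AKG-free group the order was opposite as well, but library 2 had the lowest GPD2 (9.05 FPKM) and the highest DDIT4L (25.8 FPKM). Library 3 had the highest GPD2 (12.9 FPKM) and the lowest DDIT4L (2.95 FPKM) there. The spread of this ratio within a group was larger than any difference between group medians.

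The listed genes whose profile was most like each of the 3 were ranked by Pearson's r of log2(FPKM + 1) over the 9 libraries, among the 28 other genes that passed the filter. For COX7B2 they were ENSBTAG00000052882, which has no symbol (r = 0.957, Spearman's rho = 0.717), S100A11, a calcium-binding protein (r = 0.918, rho = 0.467), and ENSBTAG00000050611, also without a symbol (r = 0.917, rho = 0.833). Like COX7B2, all 3 had lower values in AKG-free library 1 than in libraries 2 and 3, and S100A11 had 57.4, 1178 and 1866 FPKM in AKG-free libraries 1 to 3. Without AKG-free libraries 2 and 3, the farthest from the median of COX7B2, r over 7 libraries was 0.333, -0.318 and 0.560 for these genes in the same order, so the likeness rested largely on those libraries and for S100A11 did not hold without them.

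For GPD2 the most similar profiles were those of CRYAB, a small heat shock protein (r = 0.785, rho = 0.722), MOGAT1, which makes diacylglycerol (r = 0.779, rho = 0.717), and AIF1, an actin-binding protein (r = 0.734, rho = 0.850). Over the 6 libraries without the AKG-free group r was lower for each, at 0.252, 0.385 and 0.598. CRYAB had 0 FPKM in the control libraries and 0.464, 0.266 and 0 FPKM in AKG-treated libraries 1 to 3. Its r over those 6 libraries thus rests on values at or near 0. Like GPD2, AIF1 and MOGAT1 had their control maximum in library 2, at 13.2 and 0.919 FPKM. Among AKG-treated libraries AIF1 was highest in library 2, as GPD2 was, but MOGAT1 in library 1, at 3.07 FPKM. In the AKG-free group each of these genes was highest in library 3. AIF1 and MOGAT1 were lowest there in library 1, at 16.9 and 4.52 FPKM, and GPD2 in library 2. MOGAT1 belongs to glycerolipid metabolism and GPD2 to glycerophospholipid metabolism in the deposited pathway terms.

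For DDIT4L the most similar profiles were those of CCL27, a chemokine (r = 0.830, rho = 0.475), ENSBTAG00000053475, without a symbol (r = 0.787, rho = 0.548), and PAG11, a pregnancy-associated glycoprotein of the trophoblast (r = 0.696, rho = 0.50). CCL27 had 0.455, 0 and 0 FPKM in AKG-treated libraries 1 to 3, 3.91, 12.2 and 4.56 FPKM in AKG-free libraries 1 to 3, and 0 in the control libraries. ENSBTAG00000053475 had reads in AKG-free library 2 alone, at 5.41 FPKM, so its likeness rests on that library. Over the 6 libraries without the AKG-free group, r with DDIT4L was 0.257 for CCL27 and -0.25 for PAG11, and without the pair of libraries farthest from the DDIT4L median it was 0.216 and -0.07, so neither likeness held without the AKG-free libraries. PAG11 had 1.36, 17.1 and 2.90 FPKM in AKG-treated libraries 1 to 3, against 42.2, 67.9 and 24.0 FPKM in AKG-free libraries 1 to 3 and 1.52, 0 and 1.44 FPKM in control libraries 1 to 3. It was the only one of 8 trophectoderm markers among the listed genes. Of the markers looked up for the inner cell mass (3), hypoblast (3), cumulus (3), blood (3) and sperm (2), 0 were listed, so their levels were not analysed here, and the part of cell composition in these results was not tested.

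**Figure D4:**
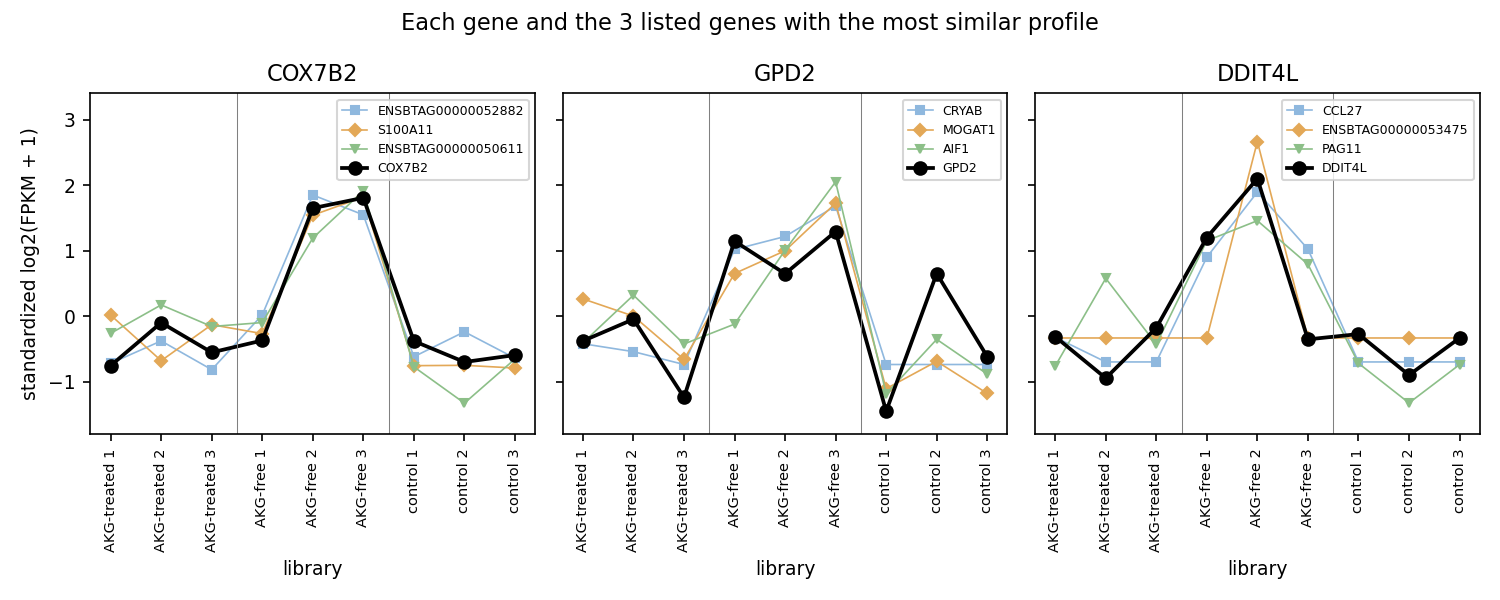
Log2(FPKM + 1) standardized to mean 0 and SD 1 over the 9 libraries (y axis) for COX7B2, GPD2 and DDIT4L (black) and the 3 listed genes with the highest Pearson correlation to each (colours). Lines only join the points of a gene, and the COX7B2 panel shows all 4 profiles lower in AKG-free library 1 than in AKG-free libraries 2 and 3.

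None of the 3 genes was among the 3 most similar to another of them by the same measure. Over the 9 libraries COX7B2 and GPD2 gave r = 0.553, COX7B2 and DDIT4L 0.467, and GPD2 and DDIT4L 0.335. Spearman's rho for these pairs was 0.45, 0.133 and -0.15. Over the 6 libraries without the AKG-free group r was negative for each pair, at -0.154, -0.371 and -0.844, so the positive r rested on the AKG-free libraries. By likeness to COX7B2, GPD2 ranked 19 and DDIT4L 20 of 28 genes. By likeness to GPD2, COX7B2 ranked 11 and DDIT4L 19, and by likeness to DDIT4L, COX7B2 ranked 12 and GPD2 15. The listed genes shared the AKG-free extreme by which they are presented, so these r values are descriptions of the libraries.

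The rest of the 3 pathways was almost unrepresented. Of 28 cytochrome c oxidase subunits and assembly factors, 12 shuttle genes and 26 genes of mTORC1 and its regulators, 1 each was among the listed genes, COX7B2, GPD2 and DDIT4L themselves. Of 20 targets of the integrated stress response and of oxidative stress, 0 were listed. No gene outside the list was analysed here, so no statement on these pathways can be made beyond the 3 genes. In the annotation terms of the deposited table, 2 of the 47 genes carried a mitochondrial term, GPD2 and COX7B2, and oxidative phosphorylation was attached to COX7B2 alone. The pathway cell was empty for 31 of the 47 genes and the gene ontology cell for 6, and the gene ontology terms of 5 others were not used here.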

How the data were processed

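Per the labels' protocols, RNA of bovine embryos was turned into cDNA libraries with SMART-Seq v4, made for very low input, and both ends of each fragment were read on Illumina instruments. The submitters' processing notes name cutadapt 1.9, HISAT2 2.0.4, StringTie 1.3.4d and edgeR, without their roles. No source used here gives settings, genome build or annotation version. Per the file headers, the authors deposited FPKM for each library and, in a table of the series, FPKM with counts per gene. The FPKM of all 9 single-library tables was identical to that table. FPKM corrects for length and depth but not for composition.

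Library sizes came from the ratio of count to FPKM over 13 genes, each with 100 or more counts in every library, where no gene deviated by more than 0.811%. Sums over 47 genes are not depth. edgeR 4.0.16 (quasi-likelihood test, common dispersion, no trend, R 4.3.3) was fitted to the counts of all 47 genes and 9 libraries, with an adjusted p threshold of 0.05. limma 3.58.1 on log2(FPKM + 1) gave intervals, and understates changes of low genes. DESeq2 1.42.0, TMM and size factors over the listed genes, a pseudocount of 0.1, a filter at a mean of 0.5 FPKM, the 6 libraries compared, the replicate number and leaving out each library were alternatives. The edgeR step was tested on simulated counts. Their spread was set in advance and not taken from these libraries, so that check does not show what the test could find here. Python 3.11.15, numpy 2.4.6, pandas 2.3.3, scipy 1.17.1 and matplotlib 3.10.9 were used.

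The 3 genes, the gene lists and the tests were chosen with earlier results of these data known. The named genes were the 3 genes and, for each, the 3 listed genes with the highest Pearson correlation among those with a mean of at least 0.5 FPKM. No sequences are shown, since no sequence file was used here.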

Additional observations from a re-analysis of the deposited data

How the results depend on the processing

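Of 170 values recomputed under 17 alternatives, 147 kept their direction and either moved by less than 1 SD of the libraries or, in the tested comparison, stayed on the same side of the threshold. Many of them could hardly change, so the 147 does not measure robustness. Leaving out a library of the group not compared returned nearly the same difference. For COX7B2, AKG-free minus control stayed at 2.12 without AKG-treated library 1 and with DESeq2's Wald test on the same depth. AKG-free minus control moved with both scalings over the listed genes: TMM gave log2 differences of 0.33 for COX7B2, -0.43 for GPD2 and 0.92 for DDIT4L, and DESeq2's size factors gave -0.0088, -0.52 and 0.87. For AKG-treated minus AKG-free, TMM gave -0.63 for COX7B2, -0.25 for GPD2 and -1.25 for DDIT4L, and the size factors gave -0.42, -0.36 and -1.31. For AKG-treated minus control, TMM gave -0.30 for COX7B2, -0.68 for GPD2 and -0.34 for DDIT4L, and the size factors gave -0.43, -0.88 and -0.43, where depth scaling had 0.13, -0.18 and 0.05. Both scalings take most genes as unchanged, which shifts a list of genes presented as differing by construction.

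Leaving out 1 library, AKG-free minus control ran from 1.75 to 2.57 for COX7B2, 0.75 to 1.71 for GPD2 (highest without control library 2) and 1.55 to 2.87 for DDIT4L (lowest without AKG-free library 2). AKG-treated minus control ran from -0.11 to 0.28 for COX7B2, -0.52 to 0.45 for GPD2 and -0.20 to 0.35 for DDIT4L. The number of listed genes past the threshold in that comparison was 0 under all 17 alternatives, and the adjusted p of the 3 genes stayed at 1.

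With the replicate number as a block, AKG-treated minus control gave 0.03 for COX7B2, -0.10 for GPD2 and 0.07 for DDIT4L, and it moved the other differences by less than 1 SD. Deviations of libraries with the same number correlated at -0.22 to 0.20, above 0.1 in 1 of 9 pairs, and 2 of 9 libraries correlated best with their own number in both other groups. Deviations from the mean of 3 libraries depend on each other and covered listed genes only. They cannot show whether libraries of the same number shared a batch.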
